A study of Mus musculus with 8 samples.

Results

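Genes of glycolysis and of the response to low oxygen were followed in cultured mouse muscle stem cells, which repair injured fibres. The set holds 37 named genes: glucose and lactate transporters, glycolytic enzymes, the 4 Pfkfb regulators, a HIF subunit, prolyl hydroxylases and other HIF targets. Of these, 36 had their own row in the joint expression table with a mean level (8 libraries) of 0.5 TPM or more, among 16908 loci tested and 55223 listed. TPM is a transcript's length-corrected share of its library, scaled to a fixed total. The remaining gene, Pfkfb2, had no row of its own: its transcripts lay in a locus named Gm29427.

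All cells were wild-type C57BL/6J and came from female mice 6 to 8 weeks old. After expansion for 2 days on Matrigel, every culture spent 6 h in serum-free medium with a soluble BMP receptor (BMPR-IA/ALK3-Fc, 200 ng/ml), and then received a pulse of 1 h. Group vehicle_a (4 mM HCl with 0.1% BSA) and group BMP4 (100 ng/ml BMP4) came from cell isolations 48 and 54. Group vehicle_b (the same vehicle) and group BMP6 (100 ng/ml BMP6) came from isolations 75 and 77. Each isolation gave 1 vehicle and 1 stimulated library, so n = 2 per group, and ligand, experiment and isolations cannot be told apart between the 2 experiments. Whether an isolation is 1 mouse or several pooled mice is not given in the sources used here, and the p-values describe only how these samples spread.

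In glycolysis, glucose is taken up, phosphorylated and split into triose phosphates, which are oxidised to pyruvate, and lactate dehydrogenase then turns pyruvate into lactate. The Pfkfb enzymes make and break down the fructose bisphosphate that activates phosphofructokinase, the main control point of the pathway. When oxygen is short, prolyl hydroxylases no longer mark the HIF alpha subunits for degradation, and HIF raises transcription of most glycolytic genes together with genes of angiogenesis, mitophagy and pH control. Activated muscle stem cells are known to use more glycolysis than quiescent ones.

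The HIF complex binds a core of 5 bases, ACGTG or GCGTG, in its target promoters. RefSeq promoters (GRCm38.p6) were found for 35 of the 37 genes, and none for Ndrg1 and Slc2a3. In the 250 bases before the start site nearest to the start of each gene's leading transcript, 28 of 35 genes (80.0%) held at least 1 core on either strand, overlapping matches included. The share over all 32851 listed promoters was 38.6%. That share counts several promoters for some genes and takes no account of expression, and the set was chosen partly for HIF targets. The shares are thus not like for like. Pfkfb3 and Ddit4 passed the test for BMP4, described below, with the isolation as a block but not without it. The sequences below show how the cores lie in both and in genes with large vehicle differences (Slc16a3, Bnip3). They are written 5′ to 3′ on the gene's strand up to the base before the start site, with the cores in capitals. They lie at chr11:120948817-120949066 (plus strand), chr7:138909507-138909756 (minus strand), chr2:11502091-11502340 (minus strand) and chr10:59951771-59952020 (minus strand).
Slc16a3: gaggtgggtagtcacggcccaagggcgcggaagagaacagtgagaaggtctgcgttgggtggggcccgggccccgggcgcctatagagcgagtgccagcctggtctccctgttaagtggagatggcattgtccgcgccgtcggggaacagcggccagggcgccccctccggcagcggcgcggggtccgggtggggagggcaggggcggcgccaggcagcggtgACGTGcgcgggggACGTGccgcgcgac
Bnip3: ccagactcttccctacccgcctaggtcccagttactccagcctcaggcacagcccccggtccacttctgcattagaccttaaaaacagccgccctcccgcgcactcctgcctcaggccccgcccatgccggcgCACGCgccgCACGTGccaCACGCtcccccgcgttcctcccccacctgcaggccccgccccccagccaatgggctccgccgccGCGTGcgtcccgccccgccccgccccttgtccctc
Pfkfb3: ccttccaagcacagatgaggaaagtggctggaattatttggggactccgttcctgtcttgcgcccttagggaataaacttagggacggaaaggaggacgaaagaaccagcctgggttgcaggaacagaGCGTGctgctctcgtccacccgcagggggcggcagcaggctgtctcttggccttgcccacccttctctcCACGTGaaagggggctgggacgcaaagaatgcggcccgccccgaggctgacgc
Ddit4: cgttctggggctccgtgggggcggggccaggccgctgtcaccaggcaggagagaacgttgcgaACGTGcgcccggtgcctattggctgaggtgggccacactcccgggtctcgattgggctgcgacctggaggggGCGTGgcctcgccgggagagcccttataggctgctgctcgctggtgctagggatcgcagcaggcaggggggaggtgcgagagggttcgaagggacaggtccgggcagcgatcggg

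The Slc16a3 promoter held cores that begin 27 and 14 bases before the start site, and the Bnip3 promoter held a cluster that begins between 117 and 99 bases before it. Car9 had 1 core, 18 bases before its start. No core was found in the window of Gpi1, Tpi1, Pgam2, Eno2, Pkm, Pfkfb1 or Vegfa, and the listed Vegfa start lay 562 bases from the start of its leading transcript. A match describes these letters and does not show a bound site.

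Means over the 8 libraries were at least 1000 TPM for 4 genes (Pkm 2299, Eno1 2062, Ldha 1696 and Pgk1 1088 TPM), 100 to under 1000 TPM for 7, 10 to under 100 TPM for 15 and under 10 TPM for 10. The lowest means were those of Eno2 (0.883 TPM, 66 to 111 estimated reads per library), Aldoc (1.21 TPM, 16 to 267 reads) and Pfkfb1 (1.63 TPM, 66 to 142 reads). Car9, at 22 to 395 reads, also fell to few reads in the BMP6 experiment. The 18 glycolytic enzymes together took 1.15% and 1.21% of all transcripts in the vehicle_a libraries and 0.775% and 0.743% in the vehicle_b libraries. After the pulse they took 1.11% and 1.16% (BMP4) and 0.789% and 0.729% (BMP6).

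**Figure D1:**
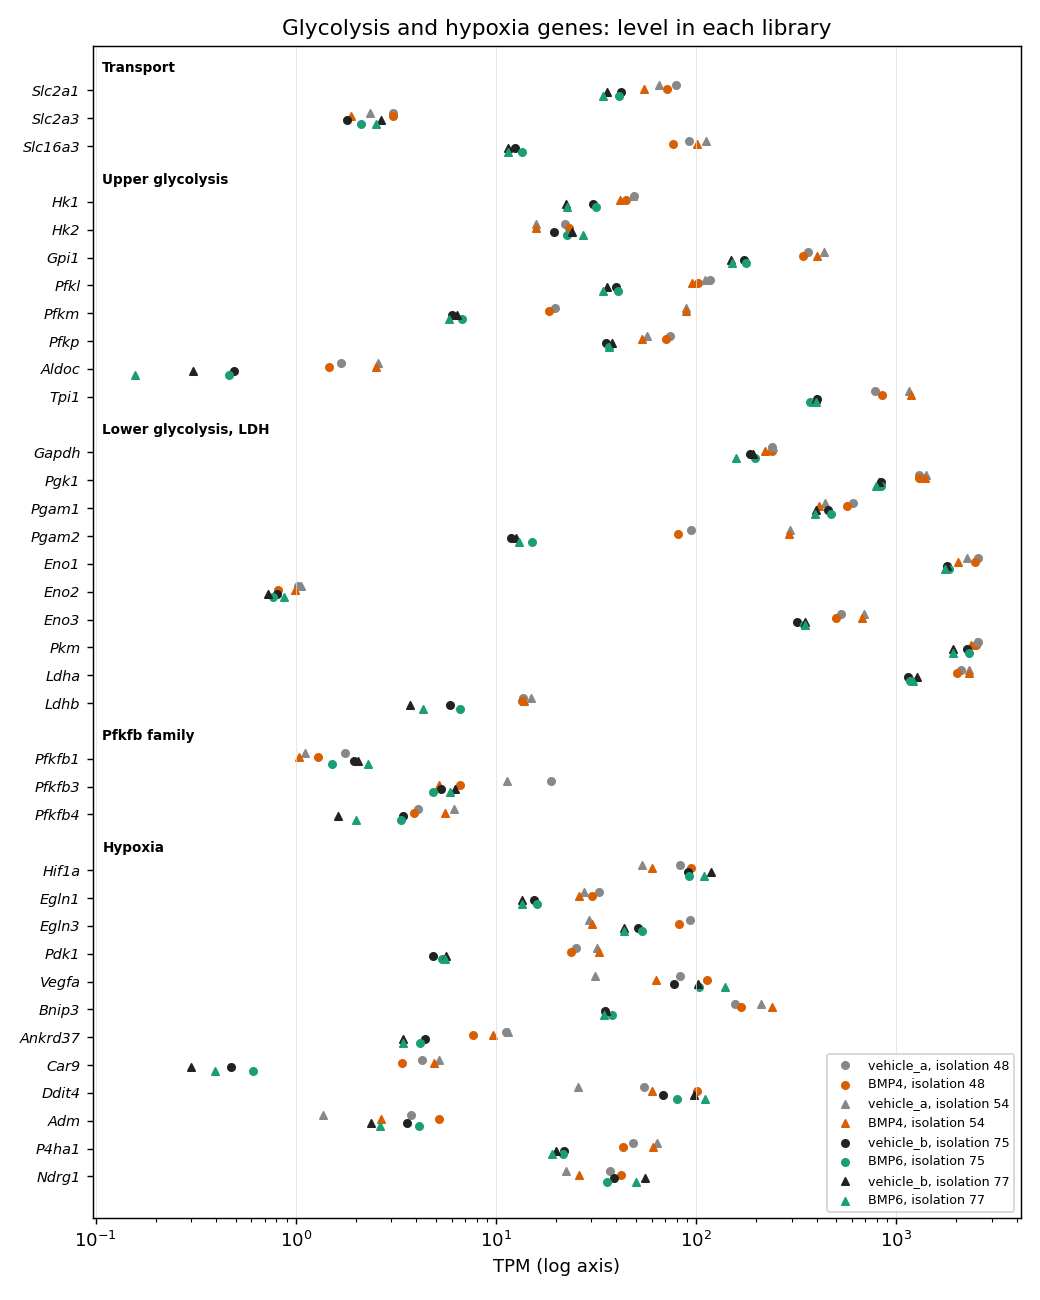
TPM of the 36 tested genes (log axis) in each of the 8 libraries, by role; colour gives the group and the marker shape the isolation. For Slc16a3, Pdk1, Bnip3 and Car9 the 4 libraries of the BMP6 experiment lie well to the left of the 4 of the BMP4 experiment, while stimulated and vehicle libraries of 1 isolation lie close together for most genes.

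Levels of 8 of these genes are uncertain, because reads can be shared with near-identical loci and multi-mapping reads were not corrected for, per the file headers. Transcripts of Pgk1 were 100.0% identical to Pgk1-rs7 and Gm5537, listed at means of 1251 and 1253 TPM. Eno1 was 99.6% identical to Gm4735 (2231 TPM) and 99.5% to Eno1b (1897 TPM). Pgam1 had Pgam1-ps2 (100.0%, 561 TPM), Pkm had Gm6560 (98.4%, 1048 TPM), Bnip3 had Gm6532 (98.6%, 76.9 TPM), Gpi1 had Gpi-ps (98.7%, 161 TPM) and Ldha had Gm5452 (95.9%, 287 TPM). Pfkp shared 748 identical bases with the neighbouring gene Pitrm1. Copies were sought for 35 of the 37 genes. The leading transcripts of Tpi1 and Ldhb had no entry in the annotation searched, so whether they have copies was not examined.

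The first comparison asked how the unstimulated cultures of the 2 experiments differed. Glycolysis and hypoxia genes were lower in vehicle_b than in vehicle_a: 21 of the 36 passed the test, all 21 lower, and none higher. The test was limma on log2(TPM + 0.5), and a gene passed at a Benjamini-Hochberg adjusted p under 0.05 over all loci. Its spread came from all 8 libraries, but the 2 libraries of an isolation are not independent. Their deviations from the group means correlated at 0.707 (vehicle_a and BMP4) and 0.455 (vehicle_b and BMP6). The p-values of this comparison are therefore likely too small. With only the 4 vehicle libraries, 20 of the 21 passed. Of all loci tested, 27.2% passed, and 16.6% passed and were lower in vehicle_b, beside 58.3% of these genes. The median log2 change of the 36 was -0.87, against -0.01 over all loci. By role, 2 of 3 transport genes, 6 of 8 genes of upper glycolysis, 6 of 10 of lower glycolysis, 1 of 3 Pfkfb genes and 6 of 12 hypoxia genes were lower.

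All 21 stayed lower in each of the 14 alternatives, but leaving out a library could not have reversed them. A stimulated library does not enter the vehicle difference, and the 21 genes did not overlap between the vehicle groups. The number of genes called rested on single libraries. It was 8 without vehicle_a replicate 2, 1 without vehicle_b replicate 1 and 0 without vehicle_b replicate 2, where the lone vehicle library left is assumed to vary like the other groups. The loci called over the whole table then numbered 420, 12 and 5, instead of 4602. Without BMP6 replicate 1 or 2, which enter only through the spread, 18 genes passed in each case and 2045 and 2086 loci were called. Calls were also gained: without vehicle_a replicate 1, Ddit4 (1.64, limma adjusted p = 0.0321) and Vegfa (1.49, adjusted p = 0.0397) passed as higher, so that the absence of higher genes rested on that library too.

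Among the transporters, the lactate exporter Slc16a3 (chromosome 11, 120839306 to 120851694, GRCm39) reached 92.4 and 112 TPM in vehicle_a but only 12.5 and 11.5 TPM in vehicle_b. The groups did not overlap, and the log2 change was -3.03 (SE 0.18, limma adjusted p = 0.00249). Non-overlap is a weak criterion with 2 libraries per group. The share of all loci without overlap was not counted, so here and below it only describes the values. The basal glucose transporter Slc2a1 (chromosome 4, 118965908 to 118995180) stood at 79.0 and 65.2 TPM against 42.1 and 36.1 TPM, and its groups did not overlap either (-0.87, SE 0.18, limma adjusted p = 0.0227). The high-affinity transporter Slc2a3, at 3.06 and 2.34 TPM against 1.81 and 2.68 TPM, overlapped between the groups and did not pass (log2 change -0.23, SE 0.27).

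In upper glycolysis, the liver-type phosphofructokinase Pfkl stood at 117 and 111 TPM in vehicle_a and at 39.7 and 35.9 TPM in vehicle_b (log2 change -1.58, SE 0.12, limma adjusted p = 0.00398). Its platelet-type partner Pfkp stood at 74.4 and 57.2 TPM against 35.5 and 38.0 TPM (log2 change -0.82). The muscle-type subunit Pfkm had the widest spread of the 3: 19.8 and 89.1 TPM in vehicle_a against 6.05 and 6.37 TPM in vehicle_b. Its log2 change of -2.67 was larger than that of Pfkl, but with an SE of 0.87 it did not pass (limma adjusted p = 0.062). It passed without vehicle_a replicate 1 (-3.74, adjusted p = 0.0288), and at -2.67 without BMP4 replicate 1 or 2 (adjusted p = 0.0285 and 0.0284). Without vehicle_a replicate 2 its change was -1.60. Phosphoglucose isomerase, Gpi1, stood at 362 and 436 TPM against 173 and 150 TPM (-1.30). Triose phosphate isomerase, Tpi1, stood at 785 and 1154 TPM against 403 and 397 TPM (-1.25). Both enzymes were lower in vehicle_b without overlap. Aldolase C, Aldoc, was low throughout, at 1.69 and 2.57 TPM against 0.493 and 0.306 TPM (-1.54). The hexokinases, which trap glucose in the cell, parted: Hk1 was lower, at 49.0 and 48.2 TPM against 30.7 and 22.5 TPM (-0.87, limma adjusted p = 0.0282). Hk2 overlapped, at 22.1 and 15.8 TPM against 19.6 and 24.1 TPM, and did not pass (0.21, SE 0.25).

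In lower glycolysis, the muscle phosphoglycerate mutase Pgam2 (chromosome 11, 5751640 to 5753733) had the largest fall of all 36 genes. It stood at 94.3 and 296 TPM in vehicle_a and at 12 and 12.6 TPM in vehicle_b, so that the groups lay far apart (-3.71 on the log2 scale, SE 0.69, limma adjusted p = 0.0179). The muscle enolase Eno3 stood at 530 and 687 TPM against 320 and 350 TPM (-0.85). The ubiquitous enolase Eno1 stood at 2568 and 2248 TPM against 1804 and 1785 TPM, the smallest change that passed (-0.42, SE 0.12, limma adjusted p = 0.0469). Phosphoglycerate kinase, Pgk1, stood at 1300 and 1415 TPM against 844 and 818 TPM (-0.71). Both lactate dehydrogenase subunits were lower: Ldha, the form that favours lactate production, at 2103 and 2319 TPM against 1151 and 1274 TPM (-0.87, SE 0.11), and Ldhb at 13.7 and 14.9 TPM against 5.87 and 3.74 TPM (-1.51, SE 0.25). The other 4 genes did not pass. Gapdh stood at 239 and 241 TPM against 185 and 192 TPM (-0.35) and Pkm at 2573 and 2518 TPM against 2263 and 1922 TPM (-0.29). Gapdh, Pkm and Eno2 (-0.29) did not overlap between the groups, while Pgam1 (-0.29) did.

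**Figure D2:**
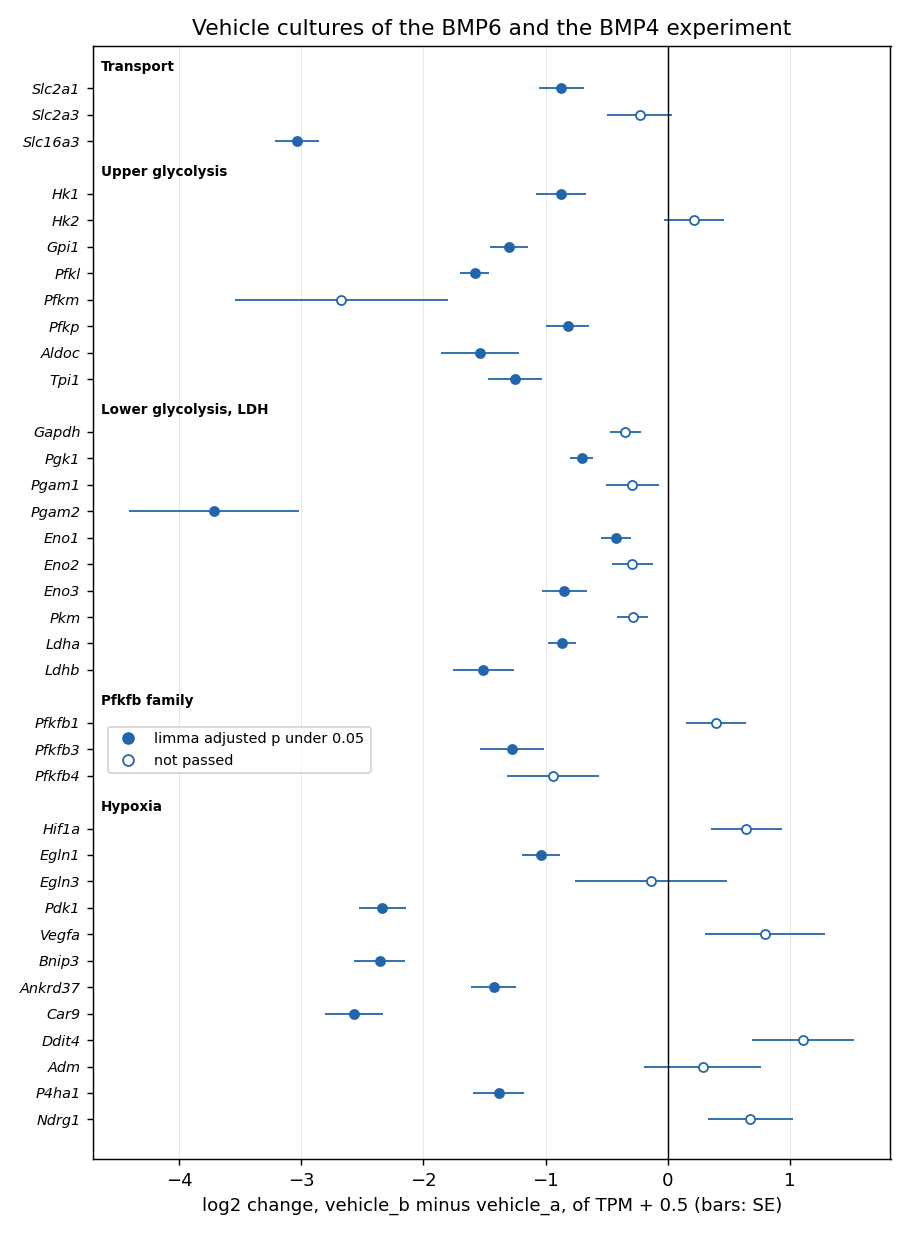
Log2 change of TPM + 0.5 in vehicle_b minus vehicle_a for each of the 36 genes, by role, with bars of 1 SE from limma and filled points for genes that passed. All 21 filled points lie below 0, from Eno1 at -0.42 to Pgam2 at -3.71, and the points above 0 are open.

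The hypoxia genes split. Pdk1 (chromosome 2, 71703568 to 71734202), a kinase that shuts pyruvate out of the mitochondrial oxidation, stood at 25.3 and 32.1 TPM in vehicle_a and at 4.87 and 5.63 TPM in vehicle_b (log2 change -2.34, SE 0.19, limma adjusted p = 0.00427). The mitophagy receptor Bnip3 (chromosome 7, 138492565 to 138511235) stood at 157 and 212 TPM against 35.1 and 35.3 TPM (-2.36, SE 0.21, limma adjusted p = 0.00472). Car9, a membrane carbonic anhydrase, stood at 4.28 and 5.21 TPM against 0.472 and 0.301 TPM (-2.57, SE 0.24, limma adjusted p = 0.005). In these 3 genes the lowest vehicle_a library was more than 4 times as high as the highest vehicle_b library. The HIF target Ankrd37 stood at 11.2 and 11.4 TPM against 4.43 and 3.44 TPM (-1.43). The collagen prolyl hydroxylase subunit P4ha1 stood at 48.3 and 63.6 TPM against 21.8 and 20.0 TPM (-1.39). The oxygen-sensing prolyl hydroxylase Egln1 stood at 32.7 and 27.7 TPM against 15.5 and 13.4 TPM (-1.04). All 6 passed, and their groups did not overlap.

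The other 6 hypoxia genes did not pass, and 5 of them had higher means in vehicle_b. The stress-induced mTOR inhibitor Ddit4 stood at 54.7 and 25.8 TPM against 68.1 and 97.8 TPM (log2 change 1.11, SE 0.42, limma adjusted p = 0.0884). The angiogenic factor Vegfa stood at 83.0 and 31.2 TPM against 77.3 and 102 TPM (0.80, SE 0.49). Hif1a itself, the oxygen-regulated HIF subunit, stood at 82.7 and 53.4 TPM against 91.4 and 119 TPM (0.64, SE 0.29). Ndrg1, a stress-induced gene, stood at 37.3 and 22.4 TPM against 38.7 and 55.7 TPM (0.68), and the vasodilator peptide gene Adm at 3.76 and 1.37 TPM against 3.60 and 2.38 TPM (0.28). Egln3, a prolyl hydroxylase that HIF also induces, stood at 92.8 and 29.1 TPM against 51.4 and 43.5 TPM (-0.14, SE 0.62). Ddit4, Hif1a and Ndrg1 were higher in both vehicle_b libraries than in either vehicle_a library, Ndrg1 only by 38.7 against 37.3 TPM, while Vegfa, Adm and Egln3 overlapped. The share of all loci separated in this way was not counted.

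The 2 isolations of the BMP4 experiment also differed from each other, with 1 vehicle library each and hence no test. In isolation 54 the vehicle culture had more Pfkm (89.1 against 19.8 TPM), Pgam2 (296 against 94.3 TPM) and Bnip3 (212 against 157 TPM) than in isolation 48. In isolation 48 it had more Egln3 (92.8 against 29.1 TPM), Vegfa (83.0 against 31.2 TPM), Ddit4 (54.7 against 25.8 TPM) and Pfkfb3 (18.9 against 11.3 TPM). The vehicle cultures of isolations 75 and 77 lay closer for these genes, the farthest apart being Ddit4 at 68.1 and 97.8 TPM. These genes were named for their gap between isolations 48 and 54, so this does not show that 75 and 77 were more alike. Isolations 75 and 77 lay farther apart for Hk1 (30.7 and 22.5 TPM, against 49.0 and 48.2 TPM in 48 and 54). The same held for Ldhb (5.87 and 3.74 TPM, against 13.7 and 14.9 TPM) and Pkm (2263 and 1922 TPM, against 2573 and 2518 TPM).

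Markers of cell state moved in the same comparison. Of 17 differentiated muscle markers 11 were lower in vehicle_b and none higher, and their summed level was 6055 to 19830 TPM in vehicle_a and 694 to 957 TPM in vehicle_b. Myog, a regulator of myoblast differentiation, stood at 1301 and 2154 TPM against 110 and 143 TPM. Muscle stem cell and myoblast markers, with 4 of 10 tested lower and 3 higher, summed to 2582 to 2756 TPM against 1273 to 1684 TPM. Among those that passed as lower, the satellite cell marker Pax7 stood at 16.9 and 16.7 TPM against 12.4 and 11.1 TPM, beside Des, Cdh15 and Itga7. The 3 that passed as higher were Sdc4, at 8.65 and 4.69 TPM against 55.2 and 68.2 TPM (3.17), Myf5, at 52.4 and 38.2 TPM against 94.0 and 86.4 TPM (1.00), and Megf10, at 18.1 and 18.4 TPM against 25.1 and 26.8 TPM (0.50). Fibroblast markers (3 of 4 tested lower: Gsn, Col3a1 and Col1a1) summed to 189 to 321 TPM against 62.5 to 68.8 TPM. Ly6a did not pass, at 11.18 and 11.73 TPM against 15.36 and 10.96 TPM. Pdgfra, Dcn, Lum, Dpt and Pi16 reached at most 0.512 TPM in any library. Pericyte and smooth muscle markers (3 of 5 tested lower: Acta2, Abcc9 and Pdgfrb) summed to 744 to 1442 TPM against 61.7 to 71.3 TPM, mostly Acta2. Rgs5 and Kcnj8 reached at most 0.294 TPM. Whether fibroblasts or pericytes were present was not tested. Endothelial, immune, erythroid and adipocyte markers summed to at most 3.77 TPM in every library, with Ptprc, Tie1, Emcn and Adipoq at 0, and Schwann cell markers to at most 12.2 TPM. The part of these markers in the glycolysis and hypoxia differences was not tested, and in bulk libraries fewer cells of a type and less RNA per cell cannot be told apart.

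Pkm, which encodes the last enzyme of the pathway, is spliced with 1 of 2 mutually exclusive exons of 167 bases: the upstream one gives the M1 form of mature muscle and the downstream one the M2 form of proliferating cells. In GRCm39 they lie on chromosome 9 at 59582312 to 59582478 (M1) and 59582851 to 59583017 (M2). By the deposited transcript TPM, M1 made up 35.0% and 52.6% of both forms in the vehicle_a libraries and 27.3% and 28.6% in the vehicle_b libraries. By the deposited coverage of the exons themselves the shares were lower, at 7.83% and 14.5% against 5.40% and 5.55%. The coverage behind them was 373 and 650 reads per base over the M1 exon in vehicle_a, and 4390 and 3820 over the M2 exon. Both measures put isolation 54 highest and the vehicle_b libraries lowest. The size of the M1 share thus depends on which of the authors' values is read: 52.6% or 14.5% in vehicle_a of isolation 54. After the pulse the exon shares were 7.20% and 16% (BMP4) and 5.28% and 5.76% (BMP6).

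**Figure D3:**
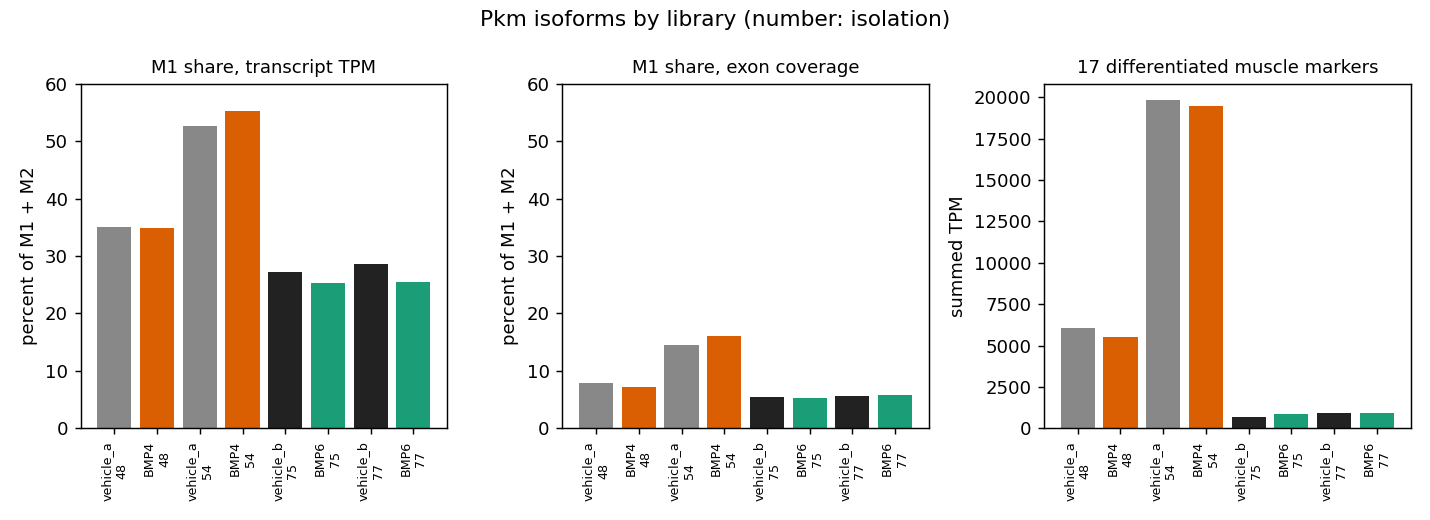
Share of the Pkm M1 form in percent of M1 plus M2 by transcript TPM (left) and by exon coverage (middle), and the summed TPM of 17 differentiated muscle markers (right), 1 bar per library with the isolation number below it. The M1 share is highest in both libraries of isolation 54 by either measure, at 52.6% and 55.2% by transcript TPM and at 14.5% and 16% by exon coverage.

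Related genes outside the set were counted in the same vehicle comparison, in which 27.2% of all loci passed. Of 48 tested genes for other HIF subunits, oxygen sensing and HIF targets, 25 were lower in vehicle_b and 2 higher, with a median log2 change of -0.59. P4ha2, another collagen prolyl hydroxylase subunit, stood at 30.1 and 32.6 TPM against 6.91 and 6.81 TPM (-2.11), and glycogen synthase, Gys1, at 113 and 162 TPM against 35.4 and 33.6 TPM (-1.96). The heme oxygenase Hmox1 went the other way, from 247 and 122 to 893 and 588 TPM (2.06, limma adjusted p = 0.0431), and so did Wsb1 (0.65). Of 8 other glycolysis and gluconeogenesis loci only Aldoa, the main muscle aldolase, passed (-1.29). The median change of the 8 was 0.11, with 5 of them above 0. Of 21 genes of pyruvate and lactate handling and further glucose transporters 6 were lower, among them Pdk2 (-2.43) and Slc2a6 (-2.80), and Pdk4 was higher (1.22). The median of the 21 was -0.56. In the pentose phosphate and serine branches 2 of 15 were lower and 2 higher, a share near that of all loci, and transketolase, Tkt, stood at 19.6 and 10.8 TPM against 54.8 and 46.8 TPM (1.76). The median of the 15 was 0.49.

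The second question was what the pulse of 1 h did within each experiment. That the ligands acted was seen in the inhibitory SMAD gene Smad7, which went from 3.36 and 2.01 TPM to 27.3 and 22.5 TPM with BMP4 and from 5.01 and 6.27 TPM to 29.3 and 32.1 TPM with BMP6. Against this, most glycolysis and hypoxia genes moved little. In the fit without a block, 0.0237% of all loci and 0 of the 36 genes passed for BMP4 (limma), and voom on estimated reads also called 0. In that limma fit 2 of the 36 had an unadjusted p under 0.05, beside 3.31% of all loci. With the isolation as a block, 0.633% of all loci and 2 of the 36 genes (5.56%) passed: Pfkfb3 fell and Ddit4 rose. The median log2 change of the 36 genes was -0.09 against -0.02 over all loci, with 28 lower and 8 higher. Directions over all loci were not counted, here and below.

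Pfkfb3, the family member with the strongest activity toward making the phosphofructokinase activator, lies on chromosome 2 at 11476244 to 11558888 (GRCm39). Vehicle_a had 18.9 and 11.3 TPM, and the BMP4 libraries had 6.61 and 5.17 TPM. Both isolations fell, by 1.45 (isolation 48) and by 1.06 (isolation 54) on the log2 scale, and the groups did not overlap. The log2 change was -1.25 with an SE of 0.26 without the block (limma adjusted p = 0.583) and of 0.11 with it (limma adjusted p = 0.0299). Its leading transcript, 1 of 12 listed, went from 13.7 and 8.63 TPM to 4.31 and 4.88 TPM. With BMP6, Pfkfb3 stood at 5.29 and 6.24 TPM before and 4.85 and 5.91 TPM after the pulse (log2 change -0.09). The 6 libraries other than vehicle_a thus lay between 4.85 and 6.61 TPM.

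Pfkfb3 was also lower in vehicle_b than in vehicle_a (log2 change -1.28, SE 0.26, limma adjusted p = 0.0217). That comparison and the one with BMP4 share the vehicle_a libraries, so they are not independent. The BMP6 response exceeded the BMP4 response by 1.16 for Pfkfb3 (SE 0.15 with the block, limma adjusted p = 0.235) and did not pass. It passed with voom on estimated reads and the block (1.27, adjusted p = 0.0464).

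The other family members were low. Pfkfb4, which is induced by hypoxia in many cells, stood at 4.09 and 6.15 TPM (vehicle_a), 3.89 and 5.56 TPM (BMP4), 3.41 and 1.62 TPM (vehicle_b) and 3.34 and 2.01 TPM (BMP6). Its vehicle levels did not overlap, but the log2 change of -0.94 (SE 0.38) did not pass (limma adjusted p = 0.103). Pfkfb1, the liver and muscle form, stood at 1.76 and 1.11 TPM (vehicle_a), 1.29 and 1.03 TPM (BMP4), 1.97 and 2.05 TPM (vehicle_b) and 1.52 and 2.29 TPM (BMP6). Neither gene passed in any of the 5 comparisons, with or without the block. The Pfkfb2 transcripts summed to 2.16 and 2.51 TPM (vehicle_a), 1.76 and 2.37 TPM (BMP4), 2.52 and 2.24 TPM (vehicle_b) and 2.40 and 2.65 TPM (BMP6), and were not tested.

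Ddit4 (chromosome 10, 59785491 to 59787656) stood at 54.7 and 25.8 TPM in vehicle_a and at 101 and 60.2 TPM after BMP4. It rose in both isolations, by 0.87 and 1.21 on the log2 scale, and the groups did not overlap. The log2 change was 1.04, with an SE of 0.42 without the block (limma adjusted p = 1.00) and of 0.08 with it (limma adjusted p = 0.0254). Without the block its size moved with the vehicle and stimulated libraries of both isolations: it was 1.57 without vehicle_a replicate 1, 0.51 without vehicle_a replicate 2, 0.67 without BMP4 replicate 1 and 1.41 without BMP4 replicate 2. With BMP6 it stood at 68.1 and 97.8 TPM before and at 80.3 and 111 TPM after the pulse, a log2 change of 0.21 that did not pass in either fit. Both calls with the block rested on the spread of the other experiment: without isolation 75 or 77 the adjusted p was 0.111 and 0.112 for Pfkfb3 and 0.0889 and 0.0846 for Ddit4, at the same log2 changes.

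**Figure D4:**
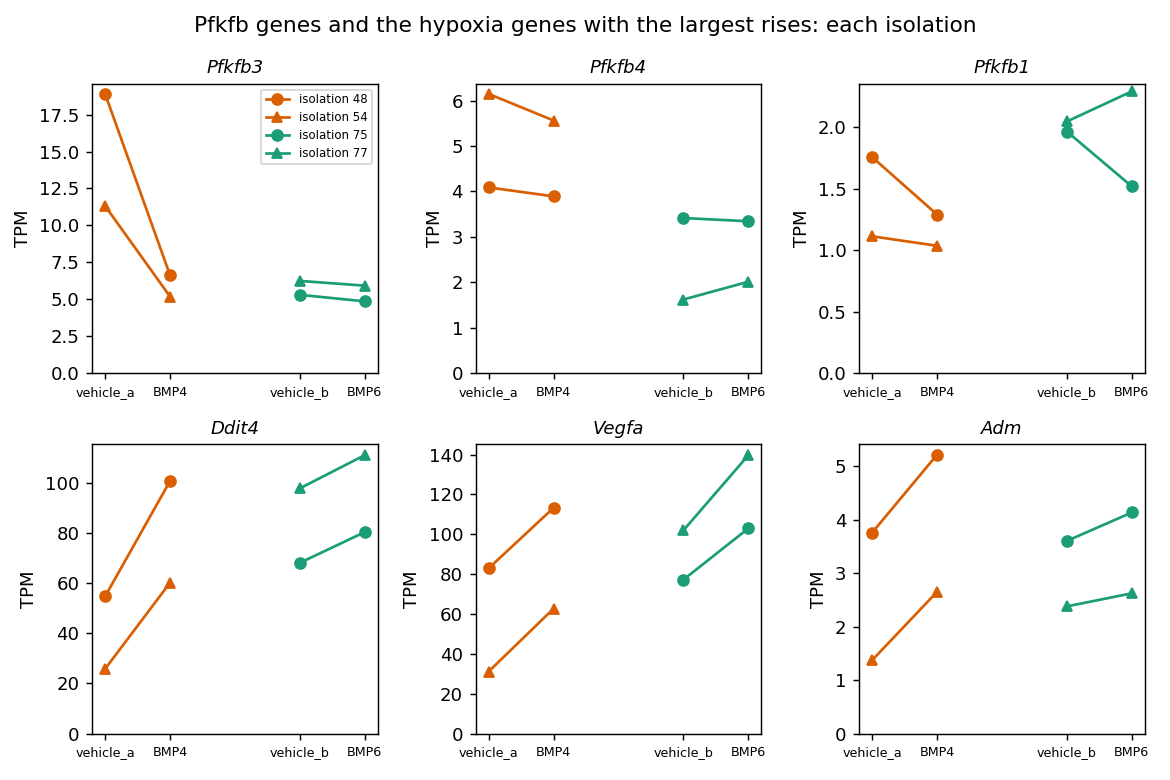
TPM of Pfkfb3, Pfkfb4, Pfkfb1, Ddit4, Vegfa and Adm before (vehicle) and after the pulse, with a line for every isolation; each axis starts at 0. The Pfkfb3 lines fall steeply for isolations 48 and 54 and are nearly flat for 75 and 77, and the 4 lines of Ddit4, Vegfa and Adm all point upward.

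Vegfa was higher after the pulse in 4 of 4 isolations without passing for either ligand, and the share of all loci that did so was not counted. It went from 83.0 to 113 TPM and from 31.2 to 62.7 TPM with BMP4 (0.72, SE 0.13 with the block, limma adjusted p = 0.0997). With BMP6 it went from 77.3 to 103 TPM and from 102 to 140 TPM (0.43, SE 0.13, limma adjusted p = 0.711). It passed for BMP4 with voom on estimated reads and the block (0.65, adjusted p = 0.0378). Its 2 leading transcripts of 5 listed were higher in each stimulated library as well, from 41.5 to 51.5 TPM and from 37.3 to 44.4 TPM in isolation 48. Adm was also higher in 4 of 4 isolations, from 3.76 to 5.22 TPM and from 1.37 to 2.65 TPM with BMP4 (0.59, SE 0.11 with the block, limma adjusted p = 0.112) and from 3.60 to 4.14 TPM and from 2.38 to 2.62 TPM with BMP6 (0.15).

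The remaining hypoxia genes differed from their vehicle by at most 0.52 log2 units in any isolation (Ankrd37, isolation 48). Ankrd37 had the largest fall of them with BMP4, from 11.2 to 7.67 TPM and from 11.4 to 9.72 TPM (log2 change -0.37, limma adjusted p = 0.15 with the block). Hif1a was higher in both, from 82.7 to 94.0 TPM and from 53.4 to 60.3 TPM (0.18, adjusted p = 0.146), and so was Bnip3, from 157 to 168 TPM and from 212 to 239 TPM (0.13, adjusted p = 0.227). Neither passed. Pdk1 moved little, from 25.3 to 23.9 TPM and from 32.1 to 32.6 TPM, and Car9 from 4.28 to 3.39 TPM and from 5.21 to 4.91 TPM. Among related HIF targets, the clock-linked repressor Bhlhe40 rose with BMP4 in the blocked fit, from 16.5 and 19.9 TPM to 83.3 and 82.2 TPM (2.16, limma adjusted p = 0.00326), and none of the 48 tested passed as lower.

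Glycolytic enzymes and transporters changed by small amounts. With BMP4 all 10 genes of lower glycolysis, 6 of 8 of upper glycolysis and all 3 transporters had negative log2 changes. Their medians were -0.07, -0.09 and -0.19, against -0.02 over all loci. None passed in limma with the block, and 7 of these 21 had an unadjusted p under 0.05 there, as did 15 of the 36 genes and 20.3% of all loci. The largest falls in both isolations were those of Slc16a3, from 92.4 to 76.5 TPM and from 112 to 101 TPM (-0.21, SE 0.05, adjusted p = 0.146), Pfkl, from 117 to 102 TPM and from 111 to 95.3 TPM (-0.21, SE 0.04, adjusted p = 0.112), and Slc2a1, from 79.0 to 71.6 TPM and from 65.2 to 54.9 TPM (-0.19, SE 0.04, adjusted p = 0.132). These 3 passed with voom on estimated reads and the block. Eno1 (-0.10), Pgam1 (-0.10), Gpi1 (-0.10) and Hk1 (-0.17) were lower in both isolations too. Hk2 was the 1 enzyme beside Tpi1 with a positive change, at 0.04.

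**Figure D5:**
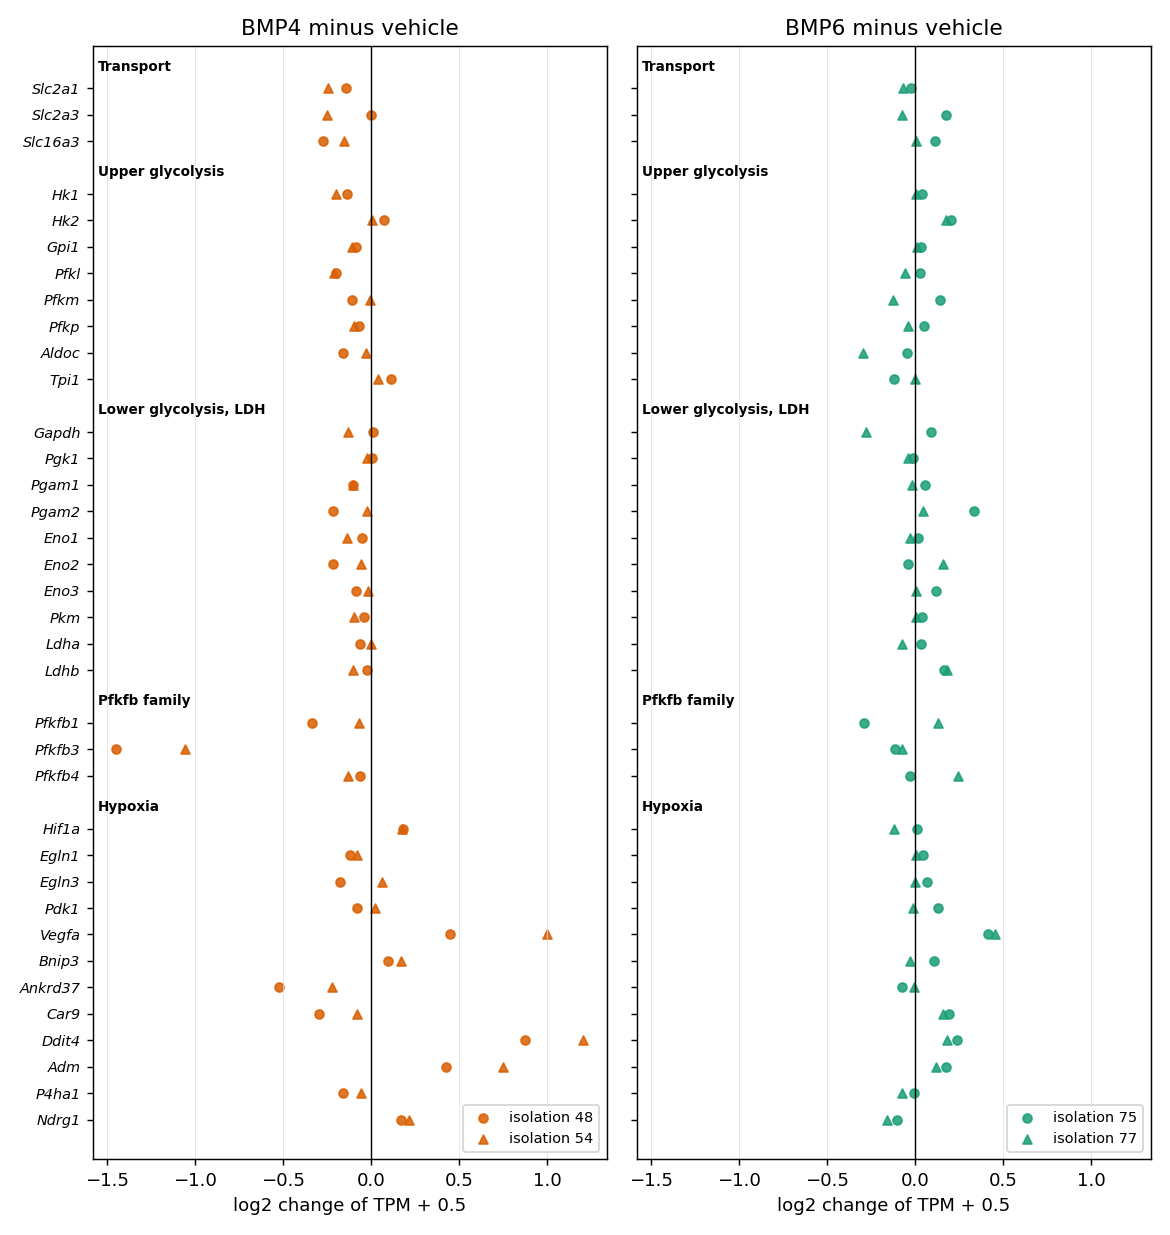
Log2 change of TPM + 0.5, stimulated minus vehicle of the same isolation, for the 36 genes by role, with BMP4 on the left and BMP6 on the right and 1 point per isolation. Most points lie near 0; with BMP4, Pfkfb3 lies at -1.45 and -1.06 and Ddit4 at 0.87 and 1.21, and with BMP6 the farthest points are those of Vegfa at 0.41 and 0.45.

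With BMP6, 0.0118% of all loci and 0 of the 36 genes passed without the block, and 0.148% and again 0 with it (limma). An unadjusted p under 0.05 was reached by 0 of the 36 genes without and 4 with the block (Hk2, Ldhb, Vegfa and Ndrg1), beside 1.26% and 5.72% of all loci. The median log2 change of the 36 was 0.02 against 0.00 over all loci, with 22 higher and 14 lower. Hk2 went from 19.6 to 22.7 TPM and from 24.1 to 27.2 TPM (0.19, SE 0.05 with the block, limma adjusted p = 0.585). Ldhb went from 5.87 to 6.62 TPM and from 3.74 to 4.32 TPM (0.17, adjusted p = 0.834), and Ndrg1 was lower, from 38.7 to 36.1 TPM and from 55.7 to 49.8 TPM (-0.13, adjusted p = 0.790). Pgam2 showed the largest rise of lower glycolysis, from 12 to 15.2 TPM and from 12.6 to 13.0 TPM, and Gapdh the largest fall, from 192 to 158 TPM in isolation 77 after 185 to 197 TPM in isolation 75.

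For the mean of the BMP4 and BMP6 responses, 0.071% of all loci and 0 of the 36 genes passed without the block (limma). In that fit 1 gene had an unadjusted p under 0.05, beside 2.4% of all loci. With the block 0.674% of all loci and 1 of the 36 passed: Ddit4, higher in 4 of 4 isolations (log2 change 0.62, SE 0.06, limma adjusted p = 0.0314). Pfkfb3 was lower in 4 of 4 isolations and narrowly missed the threshold (-0.67, SE 0.08, adjusted p = 0.0503). It passed with voom and the block (-0.73, adjusted p = 0.00615). Vegfa followed at 0.58 (SE 0.09, adjusted p = 0.106). Slc2a1, Aldoc, Ankrd37 and P4ha1 were lower and Hk2 and Adm higher in 4 of 4 isolations, and did not pass. Some of these changes were minute, at -0.006 for P4ha1 (isolation 75), -0.003 for Ankrd37 (isolation 77) and 0.002 for Hk2 (isolation 54). The share of all loci with 1 direction in 4 of 4 isolations was not counted, so such agreement only describes these genes.

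In the difference between the ligands (BMP6 response less BMP4 response), 0% of all loci and 0 of the 36 genes passed, with or without the block (limma). With the block 11 of the 36 genes had an unadjusted p under 0.05 beside 13.3% of all loci. Without it 1 gene had, beside 1.44% of all loci. Of the 36 differences 26 were positive and 10 negative, with a median of 0.10 against 0.01 over all loci. Ddit4 had a difference of -0.83 (SE 0.12, limma adjusted p = 0.235), Ndrg1 of -0.32 (SE 0.06, adjusted p = 0.264), Slc16a3 of 0.27 (SE 0.08, adjusted p = 0.319) and Hif1a of -0.23 (SE 0.06, adjusted p = 0.318). These p-values do not show that the ligands acted alike on these genes.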

How the data were processed

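The members and gene lists were chosen with earlier results of these data known. From 8 cultures the authors made stranded poly(A) libraries, read from 1 end over 50 nt (labels' protocols). The submitters' processing notes list STAR 2.7.11a, SAMtools 1.17 and the build GRCm39. The deposited TPM values and coverage signal come from StringTie 2.2.1, run without multi-mapping correction or a strand option, per the file headers, so antisense and overlapping genes cannot be separated. Depth, estimated from that coverage, was 48012828 to 58002740 reads per library, and counting noise is largest for the lowest genes.

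Samples were grouped by their treatment labels. limma 3.58.1 (R 4.3.3) was fitted to log2(TPM + 0.5) of 16908 loci whose mean reached 0.5 TPM, as 4 group means with a variance trend. Changes of low genes are therefore understated. Tests were two-sided with Benjamini-Hochberg adjustment over all loci and a threshold of 0.05. The fits were also run on simulated data in which only BMP4 libraries were changed, so no vehicle difference was simulated. The labels number both libraries of an isolation alike. Their deviations from group means correlated at 0.707 and 0.455, and the block is that isolation. Alternatives changed the pseudocount, filter, scaling, model (voom on estimated reads), block and libraries.

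Per-library values are given for Pfkfb genes, genes that passed in either fit, and the largest rises and falls of each role group; each related gene named passed in at least 1 fit, but only some of those that passed are named, and 1 is not reported here. Values of Egln3 and of Pkm in the vehicles were added after they were seen. Copies were sought with blastn 2.17.0 among GENCODE vM21 transcripts (at least 95% identity over 200 nt, copy at 5 TPM or more) for 35 members, without Tpi1 and Ldhb.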

Additional observations from a re-analysis of the deposited data

How the results depend on the processing

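For the vehicle comparison, the number of glycolysis and hypoxia genes that passed ranged from 0 to 22 when 1 library was left out, and the loci called from 5 to 5551. The loci called were 2490 without a filter on low values and 2879 with only the 4 libraries of the comparison. For 26 of the 36 genes, those that passed in any setting together with the Pfkfb genes, 287 values kept their direction and side of the threshold, 72 kept only their direction, and 5 newly passed. Where a stimulated library was left out, the direction could not change.

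With the isolation as a replicate block, the genes of the set that passed numbered 2 for BMP4 and 1 for the mean of both ligands, instead of 0 each, and the loci 107 for BMP4, 25 for BMP6 and 114 for the mean. With the block and voom on estimated reads, 6 genes passed for BMP4, 3 for the mean and 1 for the difference, and the loci numbered 1039, 73 (BMP6), 346 (mean) and 30 (difference). With the block and rescaled TPM, an alternative chosen after seeing the data, 2 genes passed for BMP4 and 2 for the mean, and 147, 30 and 122 loci for BMP4, BMP6 and the mean. The vehicle comparison cannot be fitted with the block, since each isolation belongs to 1 experiment.

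Without the block, the loci for BMP4 were 8 with no filter, 2 with voom and 0 with only its 4 libraries. For BMP6 they were 0 with a pseudocount of 2, 12 with no filter and 12 with only its 4 libraries, for the mean 7 with no filter, and for the difference 1 with no filter. The median log2 change with BMP4 was -0.0673 with a pseudocount of 2 and -0.0741 after rescaling, with or without the block.

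Leaving out 1 library or isolation gave 0 to 3 genes and 0 to 145 loci for BMP4, 0 to 49 loci for BMP6, 0 to 3 genes and 0 to 192 loci for the mean, and 0 to 16 loci for the difference. The median log2 change then ran from -0.107 to -0.0445 (BMP4), from -0.0438 to 0.0854 (BMP6) and from -0.00372 to 0.153 (difference). The mean response of Pfkfb4 turned negative with a pseudocount of 2 (-0.00651) and with voom and the block (-0.0132), and the cause was not tested. Leaving out 1 library or isolation also turned low or small changes around: with BMP4, Pfkfb1 ran from -0.446 to 0.0397 and Pfkfb4 from -0.366 to 0.169. With BMP6, Pfkfb1 ran from -0.312 to 0.156, Pfkfb3 from -0.223 to 0.0378, Pfkfb4 from -0.334 to 0.552 and Ddit4 from -0.0496 to 0.469. The mean response of Pfkfb4 ran from -0.216 to 0.227, and the difference from -0.118 to 0.368 for Pfkfb1 and from -0.235 to 0.651 for Pfkfb4.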
